A study of Mus musculus with 14 samples.

Results

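Genes of respiratory complex I were followed in ventricles of Ccl24 knockout mice, which lack a chemokine, and of wild type mice. The mice had undergone transverse aortic constriction (TAC), a band on the aortic arch that raises the load on the heart, or a sham operation. The members were the 49 genes of the deposited count table, out of 54532, whose symbol starts with Nduf and does not end in -ps. Polyadenylated RNA of ventricular tissue was sequenced 1 week after surgery in 4 groups: CCL24 KO with TAC (knockout TAC, n = 4), WT with TAC (wild type TAC, n = 6), CCL24 KO with sham surgery (knockout sham, n = 2) and WT with sham surgery (wild type sham, n = 2). Each library was taken as 1 mouse, because the design text gives the same numbers of mice, and no other allele or agent is named in any group. The sources used here give neither the strain, nor the age, nor how the Ccl24 allele was made.

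Complex I, the NADH:ubiquinone oxidoreductase of the inner mitochondrial membrane, passes electrons from NADH to ubiquinone and pumps protons. Its N module in the matrix arm oxidises NADH, its Q module reduces ubiquinone, and its membrane arm carries the proton pumps. The core of the membrane arm is encoded in mitochondrial DNA, and the other subunits are nuclear genes whose products are imported and joined with the help of assembly factors. In heart muscle, where mitochondria fill much of the cell, the chain supplies most of the ATP for contraction.

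The 14 libraries held between 17072262 and 33123052 counts. Ccl24 had 8, 5, 6 and 3 counts in knockout TAC and 6 and 3 counts in knockout sham, against 56 to 105 counts in wild type TAC replicates 2, 3, 4, 6 and 7 and 61 and 72 counts in wild type sham. The library labelled replicate 1 of wild type TAC had 3 Ccl24 counts, as few as a knockout library, so results of wild type TAC are given with and without it. Levels are given in counts-per-million (CPM), scaled with TMM factors. All 13 cardiomyocyte markers, such as Tnnt2 and Myh6, were above 0 in every library, and their summed level lay between 63456 and 92788 CPM. These markers show heart muscle and do not tell ventricle from atrium. In bulk tissue, fewer cells of a type and less RNA per cell cannot be told apart.

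Of the 49 members, 47 were among the 15876 genes that passed the filter on low counts. The tested members were 10 subunits of the N module, 6 of the Q module, 19 of the membrane arm, the mitochondrial acyl carrier protein Ndufab1, 8 assembly factors, the pair of Ndufa4 (now placed in complex IV) and its paralog Ndufa4l2, and Ndufs6b. GENCODE M21 types 46 members as protein coding and Ndufa11b, Ndufb4c and Ndufs6b as processed pseudogenes. The 2 members below the filter were Ndufa11b, with 0 to 2 counts in a library, and Ndufb4c, with 2 to 10 counts. Ndufs6b averaged 5.94 ± 0.145 CPM in knockout TAC (SD, n = 4), had a log2 fold change of 0.38 over wild type TAC and did not pass the test (adjusted p = 0.0969, edgeR). How reads were divided between this pseudogene and Ndufs6 is not known. The rule also left out Ndufb1-ps and Ndufab1-ps, and RefSeq names the first of these Ndufb1, a protein-coding gene of the membrane arm.

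Per kilobase of transcript, the members' levels over all libraries spread widely by role. Ndufa4 was highest with 1793 CPM per kb, while the membrane arm subunits Ndufb10 and Ndufb5 had 659 and 621 CPM per kb. Among the subunits, Ndufb2 had the lowest level, 7.02 CPM per kb, and it shares 145 exon bases with the same-strand gene Gm42420, so its counts are uncertain. All 8 assembly factors were low, between 10.3 CPM per kb for Ndufaf6 and 29.6 CPM per kb for Ndufaf1, whereas each tested subunit of the N, Q and membrane groups other than Ndufb2 reached at least 122 CPM per kb. The lowest members were the pseudogenes below the filter, Ndufa11b with 0.0347 CPM per kb and Ndufb4c with 0.461 CPM per kb.

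The summed Nduf counts made up 1.55%, 1.59%, 1.75% and 1.69% of the counts of nuclear genes in the knockout TAC libraries, against a range of 1.16% to 1.60% with a median of 1.24% in the wild type TAC libraries. They made up 1.60% and 1.91% in the knockout sham libraries, against 1.38% and 1.38% in the wild type sham libraries. Knockout TAC overlapped wild type TAC only through the library labelled replicate 1 of wild type TAC, the one at 1.60%. The next wild type TAC library stood at 1.46%, below each knockout library of either surgery.

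**Figure D1:**
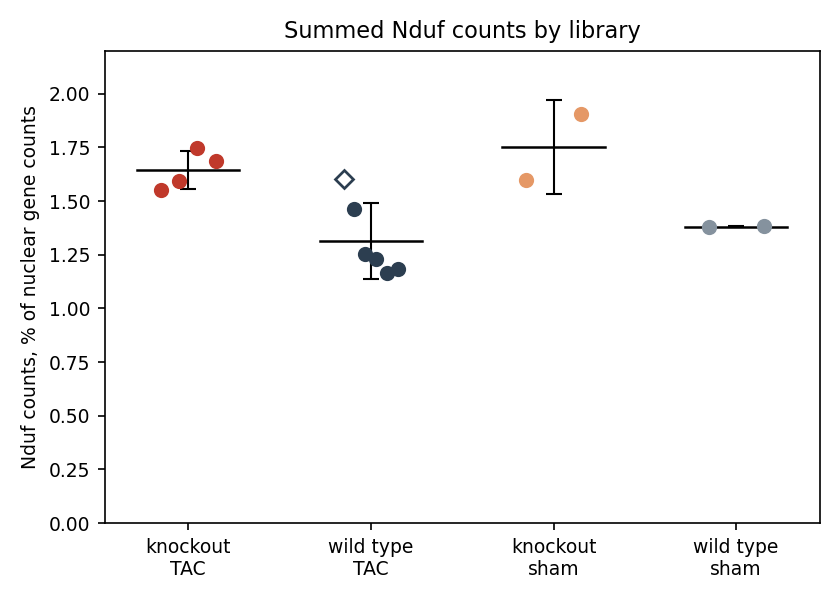
Summed counts of the 49 Nduf members as a percent of all nuclear gene counts in each library, with the mean and SD of each group as lines; the open diamond is the library labelled replicate 1 of wild type TAC. Knockout TAC libraries lie between 1.55% and 1.75%, and without the diamond the wild type TAC libraries lie between 1.16% and 1.46%.

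After TAC, 18 of the 47 tested Nduf members were higher in knockout than in wild type hearts, and the other 29 did not pass the test. Between genotypes, rose and fell mean higher and lower in the knockout, and do not mean a change from sham to TAC. No member fell, with calls made at an adjusted p under 0.05 (edgeR quasi-likelihood test, Benjamini-Hochberg over all 15876 genes), and 3.71% of all genes rose. Without the library labelled replicate 1 of wild type TAC, 39 rose, where 8.5% of all genes rose, and these 39 held all 18 of the first count. The 8 that passed in neither fit were Ndufs1, Ndufa7, Ndufv1, Ndufa10, Ndufaf2, Ndufaf6, Ndufaf8 and Ndufa4l2, with log2 fold changes of 0.17 to 0.44 in the second fit. The members' median log2 fold change was 0.35, against -0.01 over all genes, and all 47 were above 0, with 41 at an unadjusted p under 0.05. The count fell to 0 without knockout TAC replicate 4 or 5. The groups did not overlap for 3 members (Ndufa2, Ndufa12 and Ndufv3; 2.44% of all genes had each knockout library above each wild type one), and without the library labelled replicate 1 of wild type TAC for 37 members (6.81% of all genes).

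**Figure D2:**
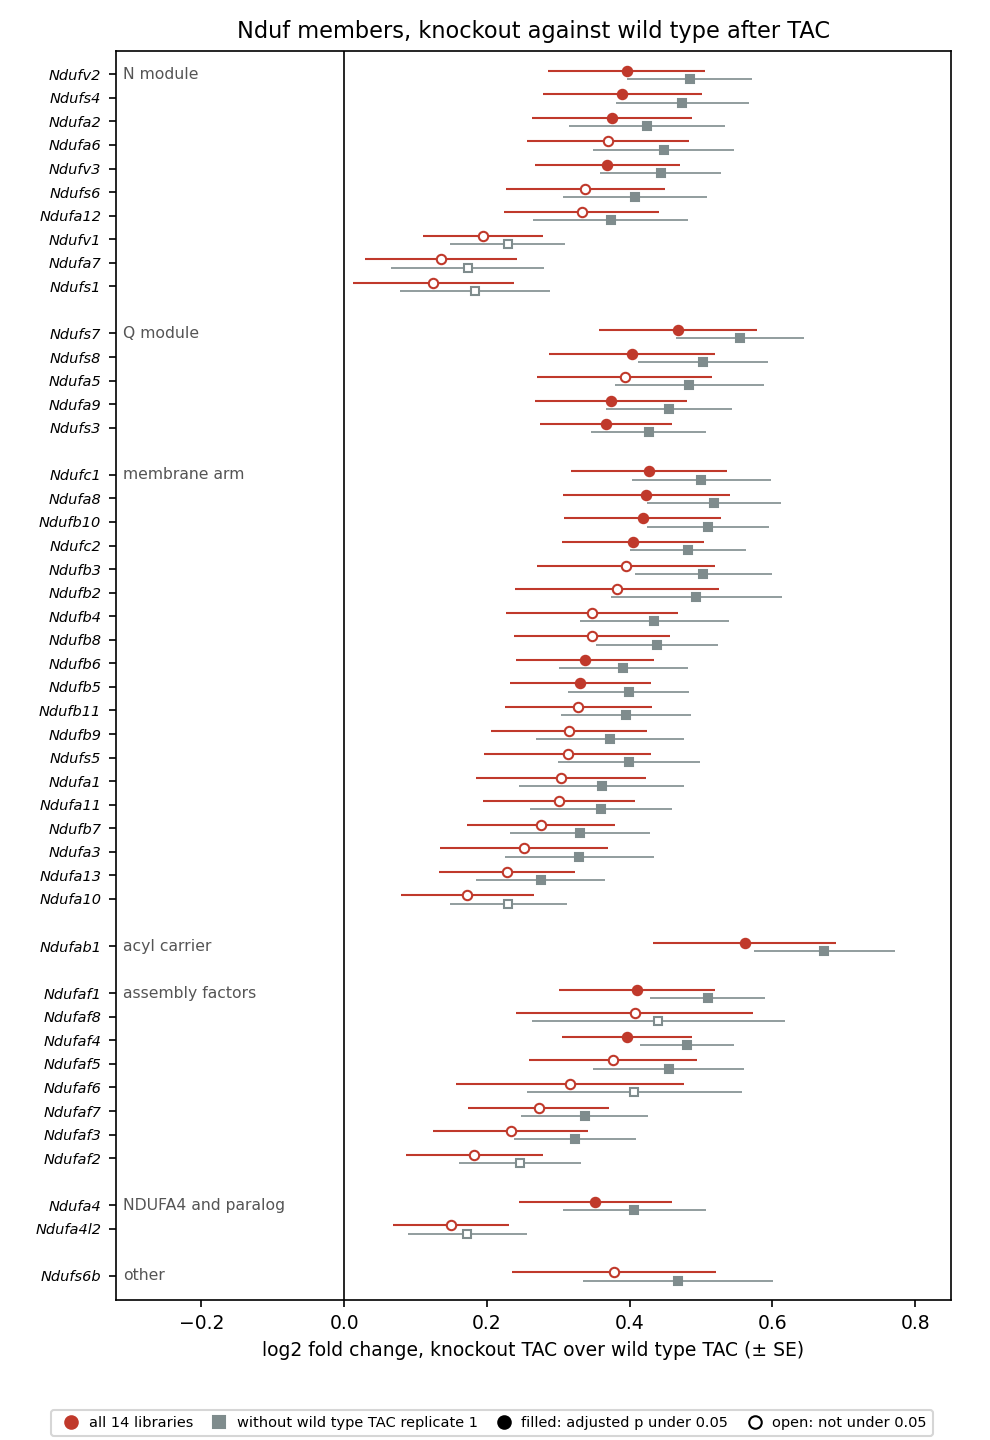
Log2 fold change with its SE of 46 Nduf members, knockout TAC over wild type TAC, grouped by role; red circles use all 14 libraries, grey squares leave out the library labelled replicate 1 of wild type TAC, and filled symbols have an adjusted p under 0.05. All points lie above 0, from 0.13 for Ndufs1 to 0.56 for Ndufab1 with all libraries.

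In the N module, 4 of 10 subunits rose. These were Ndufv2, an iron-sulfur subunit beside the NADH site (log2 fold change 0.40 ± 0.11 SE, adjusted p = 0.0369 by edgeR), Ndufs4, an accessory subunit whose loss causes Leigh syndrome in humans (0.39), Ndufa2 (0.37) and Ndufv3 (0.37). Ndufv2 stood at 540, 474, 547 and 459 CPM in knockout TAC, against 323 CPM at the lowest, 361 CPM at the median and 498 CPM at the highest in wild type TAC. The highest wild type value was that of replicate 1, and the other wild type libraries reached at most 409 CPM, below all 4 knockout libraries. Ndufa2, an accessory subunit with a thioredoxin-like fold, had 230, 226, 250.1 and 241 CPM in knockout TAC, against 143 CPM at the lowest, 184 CPM at the median and 214 CPM at the highest in wild type TAC. Ndufa12 had 206, 184, 221 and 187 CPM in knockout TAC, against 117 CPM at the lowest, 164 CPM at the median and 180.3 CPM at the highest in wild type TAC. In both genes each knockout library lay above each wild type library, replicate 1 included, although Ndufa12 (0.33, adjusted p = 0.0619 by edgeR) missed the threshold. The 3 smallest differences of the module belonged to Ndufs1, its largest iron-sulfur subunit (0.13, adjusted p = 0.486 by edgeR), Ndufa7 (0.14) and Ndufv1, which binds NADH and FMN (0.19), and none of these passed the test.

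The Q module had 4 of 6 subunits higher. Ndufs7, which holds the iron-sulfur cluster next to ubiquinone, had 407, 427, 487 and 445 CPM in knockout TAC, against 271 CPM at the lowest, 309 CPM at the median and 413 CPM at the highest in wild type TAC. Only the library labelled replicate 1 of wild type TAC reached into the knockout range, since the next wild type library stood at 325 CPM. The log2 fold change of Ndufs7 was 0.47 ± 0.11 SE (adjusted p = 0.0197, edgeR). Ndufs8, the ferredoxin-like subunit, rose by 0.40 on the log2 scale, Ndufa9 by 0.37 and Ndufs3 by 0.37, while Ndufa5 (0.39) missed the threshold. Ndufs3, which had the second smallest adjusted p of the module (0.0258), had 384, 348, 390.1 and 392.2 CPM in knockout TAC, against 251 CPM at the lowest, 284 CPM at the median and 354 CPM at the highest in wild type TAC. Here too replicate 1 was the highest wild type library, and the next, at 316 CPM, lay below all knockout libraries.

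In the membrane arm, 6 of 19 subunits rose: Ndufc1 (log2 fold change 0.43), Ndufa8 (0.42), Ndufb10 (0.42), Ndufc2 (0.40), Ndufb6 (0.34) and Ndufb5 (0.33). Ndufc2 had the smallest adjusted p of them, 0.0225 by edgeR, with 128, 127, 149 and 135 CPM in knockout TAC against 87.7 CPM at the lowest, 98.6 CPM at the median and 129 CPM at the highest in wild type TAC. Again the library labelled replicate 1 of wild type TAC alone overlapped the knockout range, the next being at 108 CPM. Ndufa8, a twin-cysteine subunit on the intermembrane side, had 379, 374, 430 and 383 CPM in knockout TAC, against 239 CPM at the lowest, 268 CPM at the median and 385 CPM at the highest in wild type TAC. Ndufb10, another subunit of that side, had 551, 520, 588 and 567 CPM in knockout TAC, against 363 CPM at the lowest, 384 CPM at the median and 543 CPM at the highest in wild type TAC. In both genes the highest wild type value was again that of replicate 1, and the next libraries, at 327 and 448 CPM, were below the knockout range. Ndufb5 shares 616 exon bases with Mrpl47 on the opposite strand and Ndufb6 shares 257 with Smim27, and the sources used here do not say whether the counting used strand. Ndufa10 had the smallest difference of the arm, 0.17, and did not pass the test. The left-out row Ndufb1-ps, the gene RefSeq calls Ndufb1, had a log2 fold change of 0.43 (adjusted p = 0.0655 by edgeR, and 0.00467 without the library labelled replicate 1 of wild type TAC).

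Ndufab1, the acyl carrier protein that sits in complex I and also serves mitochondrial fatty acid synthesis, had the largest difference of all members. Its level was 238, 234, 273 and 292 CPM in knockout TAC, against 152 CPM at the lowest, 158 CPM at the median and 241 CPM at the highest in wild type TAC. Wild type TAC replicate 1 lay between the knockout libraries, and the other 5 wild type libraries, at up to 193 CPM, lay below them. The log2 fold change was 0.56 ± 0.13 SE (1.48-fold, adjusted p = 0.0168, edgeR), and 0.67 ± 0.10 SE without replicate 1. Ndufab1-ps, a processed pseudogene, rose as well (0.62, adjusted p = 0.0395 by edgeR), and reads shared between the 2 rows cannot be assigned here. Ndufab1 also shares 269 exon bases with Gm44986 on the opposite strand, and whether the counting used strand is not known.

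Among the TAC hearts, 2 of the 8 assembly factors were higher in the knockout than in the wild type. They were Ndufaf1, which helps build the membrane arm, and Ndufaf4, which helps join the Q module, with log2 fold changes of 0.41 and 0.40. Ndufaf4 had 60.1, 56.8, 58.9 and 55.9 CPM in knockout TAC, against 39.1 CPM at the lowest, 41.8 CPM at the median and 56.6 CPM at the highest in wild type TAC. The knockout libraries were close together, and the wild type libraries other than replicate 1 ended at 45.7 CPM. Ndufaf1 had 55.0, 47.7, 49.4 and 45.5 CPM in knockout TAC, against 31.4 CPM at the lowest, 34.2 CPM at the median and 49.7 CPM at the highest in wild type TAC, with the same single overlap. Ndufaf8 had a fold change as large, 0.41, but with an SE of 0.17, and did not pass the test. The complex IV subunit gene Ndufa4 had 897, 830.4, 1065 and 949 CPM in knockout TAC, against 644 CPM at the lowest, 695 CPM at the median and 869 CPM at the highest in wild type TAC. It rose by 0.35 with an adjusted p of 0.0496 by edgeR, at the edge of the threshold, and passed in 2 of 14 fits with a library left out; its paralog Ndufa4l2, a target of hypoxia-inducible factor in cultured cells, had 0.15 and did not pass. Its levels of 24.3, 28.8, 29.3 and 31.3 CPM in knockout TAC overlapped those in wild type TAC, 23.9 CPM at the lowest, 25.4 CPM at the median and 27.7 CPM at the highest.

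**Figure D3:**
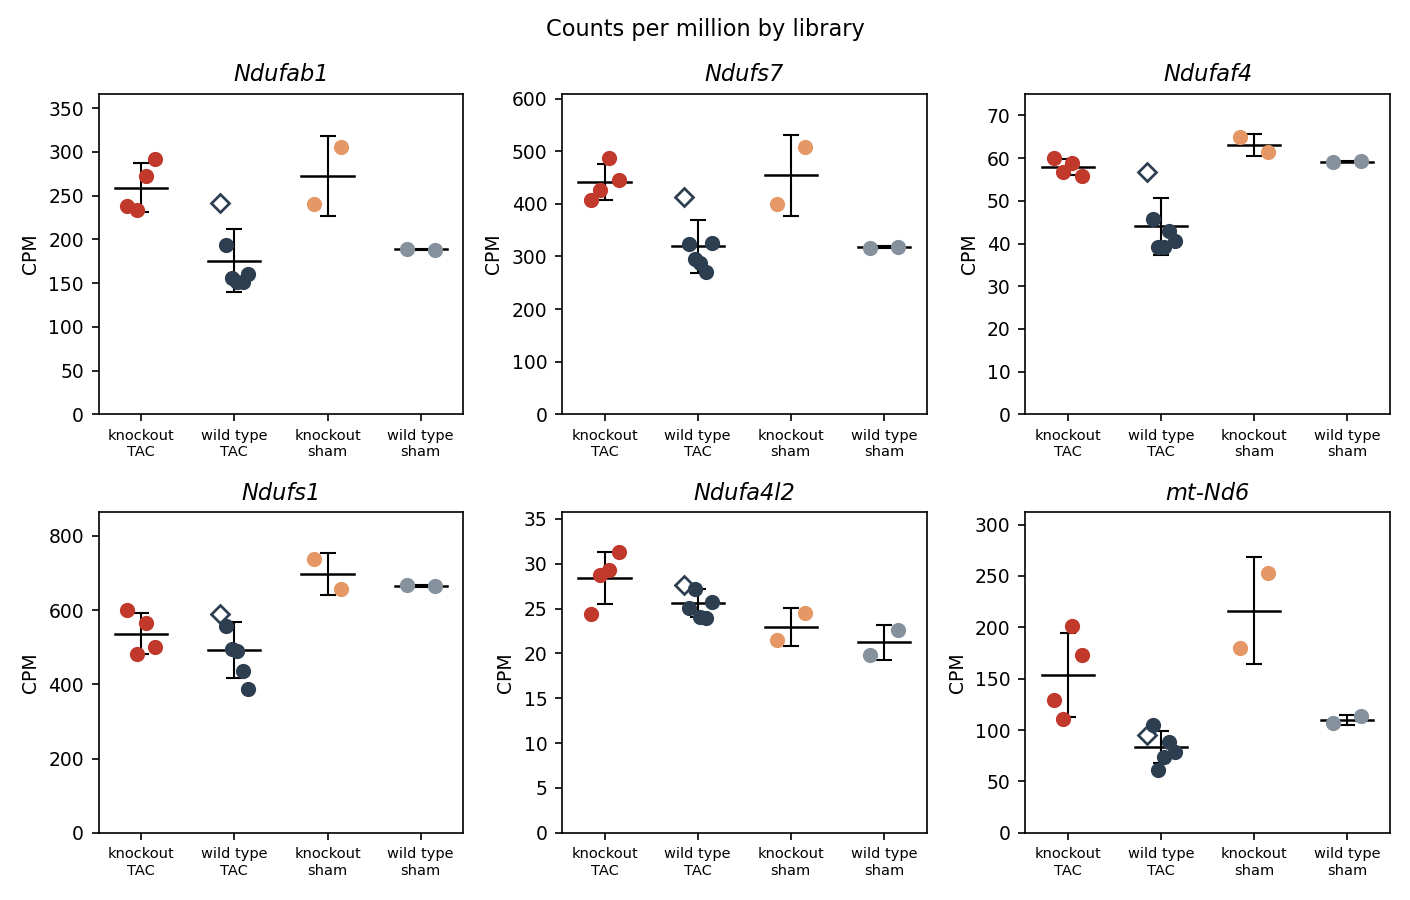
CPM of 5 Nduf members and of mt-Nd6 in each library of the 4 groups, with mean and SD as lines; the open diamond is the library labelled replicate 1 of wild type TAC. Ndufab1, Ndufs7 and Ndufaf4 are higher in knockout TAC than in the other 5 wild type TAC libraries, and Ndufs1 is lower after TAC than after sham in both genotypes.

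Promoter windows of the members were searched for motifs of factors known to control respiratory genes. RefSeq windows on GRCm38.p6, from 250 bases before to 50 bases after the gene start, were at hand for 40 members and were searched on both strands for GCGCATGCG (NRF1), AAGGTCA (estrogen-related receptors), AAGATGGC (YY1) and CCGGAAG (GABPA). The NRF1 motif was in 4 of 40 members' windows (10%), against 1.95% of the 27025 genes with a window, and the YY1 motif in 8 (20%), against 3.19%. The receptor motif was in 3 (7.5%, against 5.38%) and the GABPA motif in 6 (15%, against 9.93%), and 20 members (50%, against 18.9%) had at least 1 of the 4. The 150 bases before the start of Ndufaf4 (chr4:24897933-24898082, plus strand), Ndufa8 (chr2:36049339-36049488, minus strand) and Ndufaf1 (chr2:119662835-119662984, minus strand) are shown as members that were higher in knockout than in wild type hearts after TAC and hold a match, and those of Ndufab1 (chr7:122101849-122101998, minus strand) as the member with the largest difference, which holds none. Capitals mark NRF1 matches in Ndufaf4 and Ndufa8, where the Ndufaf4 run is the motif on both strands overlapping, and a GABPA match in Ndufaf1; the letters run 5′ to 3′ toward the gene.
Ndufaf4: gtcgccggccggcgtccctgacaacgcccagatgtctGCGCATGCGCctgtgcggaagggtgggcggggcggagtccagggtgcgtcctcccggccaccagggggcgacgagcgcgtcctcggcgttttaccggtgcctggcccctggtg
Ndufa8: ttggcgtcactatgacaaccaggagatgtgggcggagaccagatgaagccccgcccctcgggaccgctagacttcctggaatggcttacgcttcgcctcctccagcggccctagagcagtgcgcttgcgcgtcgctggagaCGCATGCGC
Ndufaf1: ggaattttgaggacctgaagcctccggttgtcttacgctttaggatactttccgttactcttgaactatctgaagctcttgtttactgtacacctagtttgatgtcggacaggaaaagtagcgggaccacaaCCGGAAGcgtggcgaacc
Ndufab1: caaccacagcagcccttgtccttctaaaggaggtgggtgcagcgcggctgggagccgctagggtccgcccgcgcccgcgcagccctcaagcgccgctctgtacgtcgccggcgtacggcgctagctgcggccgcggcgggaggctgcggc
A match describes the letters of the window, and no binding was measured. The members without a window included Ndufa2, Ndufa4l2, Ndufaf6, Ndufb9, Ndufs1, Ndufa11b, Ndufb4c and Ndufs6b.

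The number of members that rose in knockout against wild type hearts after TAC depended on single libraries. It was 0 without knockout TAC replicate 4 or 5, where 0.978% and 0.498% of all genes rose, and 3 without wild type TAC replicate 3 or 4, where 1.48% and 1.46% rose. It was 6 without wild type TAC replicate 6 (2.47% of all genes) or knockout TAC replicate 2 (1.42%), 8 without wild type sham replicate 1 (2.09%) or 2 (2.12%), and 39 without wild type TAC replicate 1. The share of all genes that rose was below the 3.71% of all 14 libraries in each fit with 8 or fewer members. The member count did not always follow this share: without knockout TAC replicate 1 it was 12, where 5.53% of all genes rose. It was 16 and 17 without knockout sham replicate 1 (2.71%) and 2 (2.74%). Without wild type TAC replicate 2 it was 23 (4.27%), and without replicate 7 it was 20 (3.56%). The median log2 fold change stayed between 0.31 and 0.42, and all 47 values stayed above 0 in each of the 14 fits. Where no member passed, without knockout TAC replicate 4 or 5, 31 and 33 members still had an unadjusted p under 0.05 by edgeR, and DESeq2 and limma voom were not rerun without those libraries. With all 14 libraries DESeq2 called 30 members higher, where it called 6.69% of all genes higher, and limma voom called 21, where it called 4.26%.

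After sham surgery the members were also higher in the knockout, but none passed the test over all genes. All 47 log2 fold changes were above 0, with a median of 0.39 against 0.01 over all genes. With the transcript length offset, an alternative chosen after seeing the data, 46 were above 0, the median was 0.25 and 12 had an unadjusted p under 0.05. In the fit without it 43 members had both knockout libraries above both wild type ones, which held for 26.6% of all genes. By edgeR 0 of 47 members passed, where 0.0378% of all genes rose; 30 had an unadjusted p under 0.05, and DESeq2 and limma voom called 0 too, with 29 and 26 at an unadjusted p under 0.05. A fit of the 4 sham libraries alone called 21 higher, where 3.4% of all genes rose. The largest difference was that of Ndufa1, a small membrane arm subunit (0.54 ± 0.19 SE), next to Ndufab1 (0.53) and Ndufb6 (0.53, adjusted p = 0.239 by edgeR, the smallest of the members). The smallest were Ndufs1 (0.07), Ndufaf4 (0.09), Ndufa10 (0.12) and Ndufa4l2 (0.12).

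The sham groups hold 2 libraries each, and the knockout ones differed from each other. Ndufb6 had 144 and 181 CPM in knockout sham, against 113 and 113 CPM in wild type sham, and Ndufs7 had 399 and 508 CPM against 316 and 319 CPM. The wild type libraries were close together in both genes, and knockout sham replicate 2 was the higher of its pair. Without knockout sham replicate 1 the members' median was 0.54, and without replicate 2 it was 0.23. The values for the other roles, such as Ndufv3 and Ndufa6 of the N module (0.50 each), Ndufs3 (0.38), Ndufb11 (0.47), Ndufaf5 (0.42), Ndufaf2 (0.31) and Ndufa4 (0.44), had adjusted p-values between 0.281 and 0.459 by edgeR.

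Few Nduf genes passed the test for TAC against sham in either genotype. In the knockout, 0 of 47 members passed by edgeR, DESeq2 or limma voom, where 4.08% of all genes passed in either direction by edgeR, and 2 members had an unadjusted p under 0.05 by edgeR: Ndufs1 (-0.38) and Ndufa4l2 (0.31). The members' median in the knockout was -0.07, with -0.20 when knockout sham replicate 1 was left out and 0.12 when replicate 2 was left out, so its sign rests on which sham library is kept. In the wild type 1 member fell and 0 rose, where 5.8% of all genes fell, and the median was 0.00. Without the library labelled replicate 1 of wild type TAC, 2 members fell (8.1% of all genes) and the median was -0.08. The count was also 2 without wild type TAC replicate 2 or 7 and without knockout TAC replicate 1 or 2, and it was 0 without either wild type sham library, where Ndufaf4 and Ndufs1 were the members that passed or not.

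The member that fell after TAC in wild type hearts was the assembly factor Ndufaf4. It had 39.1 CPM at the lowest, 41.8 CPM at the median and 56.6 CPM at the highest in wild type TAC, against 59.1 and 59.3 CPM in wild type sham. All 6 TAC libraries lay below both sham libraries, the closest being the library labelled replicate 1 of wild type TAC. How many of all genes had such a gap between TAC and sham was not counted. The log2 fold change was -0.43 ± 0.11 SE (adjusted p = 0.0266, edgeR), and -0.51 without replicate 1; the call was lost without either wild type sham library. In knockout hearts Ndufaf4 had 60.1, 56.8, 58.9 and 55.9 CPM after TAC, against 64.9 and 61.4 CPM after sham, a log2 fold change of -0.12 that did not pass the test. This comparison in the wild type and that between genotypes after TAC, in which Ndufaf4 rose, use the same wild type TAC libraries. The difference between the genotypes in this TAC effect was 0.30 ± 0.17 SE (adjusted p = 0.997, edgeR; unadjusted p = 0.0926), and 0.39 without replicate 1 (adjusted p = 0.611).

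With all libraries Ndufs1 had the log2 fold change farthest from 0 in both genotypes, but it did not pass the test. It had 387 CPM at the lowest, 493 CPM at the median and 589 CPM at the highest in wild type TAC, against 668 and 664 CPM in wild type sham. In the knockout it had 600, 481, 566 and 501 CPM after TAC, against 737 and 657 CPM after sham. The TAC and sham libraries did not overlap in either genotype, but the share of all genes without such overlap was not counted. The log2 fold change was -0.44 in the wild type (adjusted p = 0.051, edgeR; 0.0184 without the library labelled replicate 1 of wild type TAC) and -0.38 in the knockout (adjusted p = 0.159). Ndufs1 shares 489 exon bases with the opposite-strand gene Ino80dos.

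Ndufa4l2 differed upward after TAC in both genotypes, by 0.31 in the knockout (adjusted p = 0.13, edgeR) and 0.27 in the wild type (adjusted p = 0.0998), and passed in neither. Of the other members, in the knockout Ndufa11 had 0.20, Ndufb4 -0.17 and Ndufv1 -0.14, and in the wild type Ndufb6 had 0.21, Ndufaf2 0.19, Ndufa10 -0.16 and Ndufa7 0.15. The TAC effect differed between genotypes for 0 of 47 members (0% of all genes by edgeR), with 0 at an unadjusted p under 0.05 and 0 called by DESeq2 or limma voom. The median of this difference was -0.05, with 16 of 47 above 0. Without the library labelled replicate 1 of wild type TAC the median was 0.03, with 29 of 47 above 0. In that fit 0 members passed and 1 had an unadjusted p under 0.05 by edgeR. The median was also above 0 without knockout sham replicate 2 (0.13, 44 of 47 above 0) and without knockout TAC replicate 2 (0.0046, 25 of 47). It was below 0 when any other library was left out, so the sign of the median depends on single libraries. With all libraries the difference was -0.23 ± 0.22 SE for Ndufa1, -0.22 ± 0.20 SE for Ndufa7 and 0.03 ± 0.24 SE for Ndufab1.

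**Figure D4:**
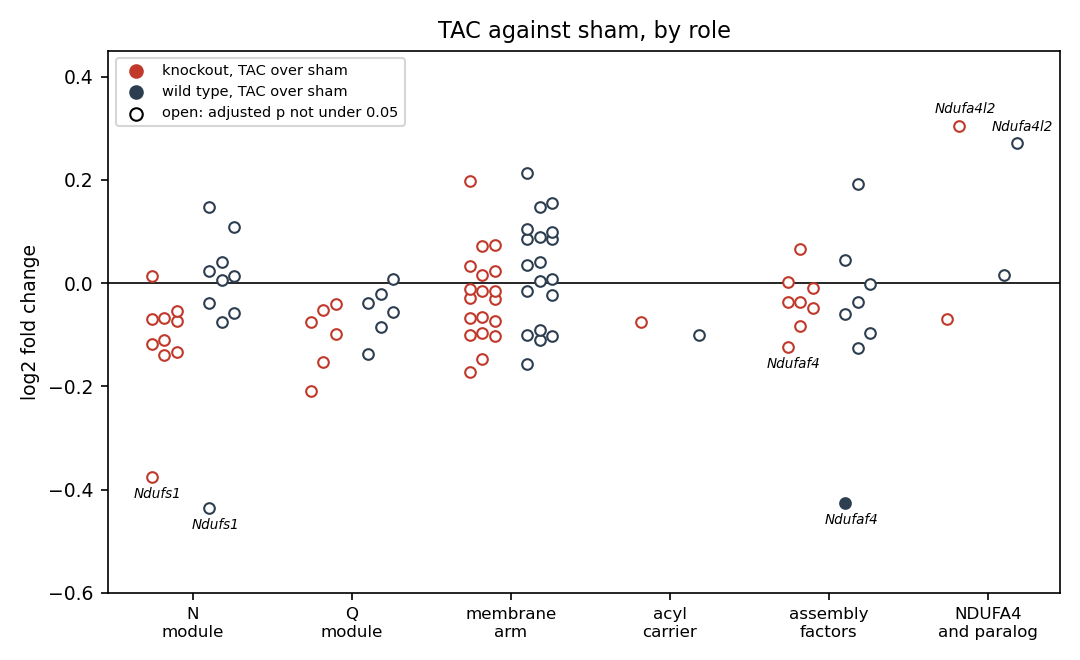
Log2 fold change after TAC over sham of 46 Nduf members with a role in the knockout (red, left in each pair) and in the wild type (dark, right); the filled point has an adjusted p under 0.05. Most points lie near 0. Ndufs1 and Ndufa4l2 stand apart in both genotypes, and Ndufaf4 stands apart in the wild type only.

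Each member's level was also set against the member median of its library, and other genes were not measured in this way. With each library's member median taken off, Ndufa6 varied least, with an SD of 0.041 on the log2(CPM + 0.5) scale over the 14 libraries, and Ndufs1 varied most, with an SD of 0.29. Relative to that median, Ndufs1 stood at 1.13 in knockout TAC, 1.38 in wild type TAC, 1.43 in knockout sham and 1.81 in wild type sham. Ndufaf4, with an SD of 0.20, stood at -2.07 in knockout TAC, -2.09 in wild type TAC, -2.02 in knockout sham and -1.67 in wild type sham. Both relative levels were highest in wild type sham. Ndufa4l2 (SD 0.25) and Ndufa10 (SD 0.19) had the next largest SDs beside it.

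The 7 complex I subunits encoded in mitochondrial DNA, the proton-pumping core, were tested in the same fit. Between genotypes after TAC, mt-Nd6, which lies on the opposite DNA strand to the other 6, was the single one that rose: it had 129, 111, 201 and 173 CPM in knockout TAC, against 60.7 CPM at the lowest, 83.4 CPM at the median and 105 CPM at the highest in wild type TAC. No wild type library, replicate 1 included, reached the lowest knockout library, and the log2 fold change was 0.88 ± 0.18 SE (adjusted p = 0.0115, edgeR), a call lost without knockout TAC replicate 5 (0.82, adjusted p = 0.0506). The strand setting of the counting is not known. The other 6 had log2 fold changes of 0.42 for mt-Nd1, 0.26 for mt-Nd2, 0.34 for mt-Nd4, -0.02 for mt-Nd5, -0.23 for mt-Nd3 and 0.69 for mt-Nd4l. Without the library labelled replicate 1 of wild type TAC, mt-Nd1 passed as well.

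After TAC in wild type hearts mt-Nd5 fell by 0.78 on the log2 scale (adjusted p = 0.0302, edgeR) and mt-Nd2 fell by 0.59 (adjusted p = 0.0398), with 3 of 7 lower without the library labelled replicate 1 of wild type TAC. Both calls were lost without either wild type sham library or without wild type TAC replicate 4, and that of mt-Nd2 also without wild type TAC replicate 3 or knockout TAC replicate 5. In knockout hearts the same genes had -0.84 and -0.67, just outside the threshold with adjusted p-values of 0.0505 and 0.0543 by edgeR, and both passed without the library labelled replicate 1 of wild type TAC (0.0381 and 0.0376). The levels of mt-Nd5 were 7547 to 10838 CPM in knockout TAC, 5812 to 11410 CPM in wild type TAC, 14858 and 16818 CPM in knockout sham, and 15833 and 14875 CPM in wild type sham. For mt-Nd5, TAC and sham libraries did not overlap in either genotype, and the share of all genes like this was not counted. The short genes mt-Nd3 and mt-Nd4l had few counts for their place, 3 to 218 CPM and 1.65 to 44.1 CPM over all libraries, and their differences had the widest errors. Mitochondrially encoded genes as a whole took 14.9% to 19.2% of counts in knockout TAC, 10.1% to 17.1% in wild type TAC, 20.5% and 23.7% in knockout sham, and 18.8% and 18.5% in wild type sham.

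Of 11 assembly factors with other names, 10 were tested, and 2 rose in knockout against wild type after TAC: Ecsit (0.30) and Tmem70, an assembly factor of complex I and of ATP synthase (0.31). Without the library labelled replicate 1 of wild type TAC, 6 rose. Tmem186 fell after TAC in wild type hearts (-0.42, adjusted p = 0.0304, edgeR), the same direction as Ndufaf4, with 4 lower when replicate 1 was left out.

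Factors that drive mitochondrial genes had most of their calls in TAC against sham. Among 13 regulators, 8 fell after TAC in wild type hearts, where 5.8% of all genes fell. They included Ppara (-1.65), Ppargc1a, the coactivator that drives mitochondrial biogenesis (-0.93), Perm1 (-0.79) and Esrrg (-0.73). In knockout hearts, where 1.73% of all genes fell, 3 regulators fell: Esrrg (-0.83), Ppargc1a (-0.79) and Gabpa (-0.36). Between the genotypes after TAC 0 of 13 passed by edgeR, with 1 at an unadjusted p under 0.05, and their median was 0.01. Esrra, a nuclear receptor that switches on respiratory chain genes, had -0.17 and Tfam, which packages and transcribes mitochondrial DNA, had 0.13.

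Other nuclear genes of the respiratory chain and markers of other cells were measured beside the members. Of 39 nuclear subunits of complexes II to V, 15 rose in knockout against wild type after TAC, with a median of 0.34 (34 without the library labelled replicate 1 of wild type TAC), among them Cox5a (0.45) and Atp5g3 (0.55). Of 16 mitochondrial mass markers outside the chain, such as citrate synthase Cs, 1 rose (Suclg1, 0.43; 9 without replicate 1), with a median of 0.22. Of 13 cardiomyocyte markers 1 rose (Tnni3, 0.49; 6 without replicate 1), with a median of 0.20, and their summed level was 76830 to 87620 CPM in knockout TAC and 63456 to 82589 CPM in wild type TAC.

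Fibroblast and macrophage markers were lower in the knockout after TAC. Of all genes 5.63% fell in this comparison, and 10% without the library labelled replicate 1 of wild type TAC. Of 10 fibroblast markers 4 fell (Pdgfra, Tcf21, Dpt and Dcn), with a median of -0.80 (9 without the library labelled replicate 1 of wild type TAC), and their summed level was 4320 to 6062 CPM in knockout TAC and 6063 to 12368 CPM in wild type TAC. Of 10 macrophage markers 5 fell, among them Mrc1 (-0.60) and Adgre1 (-0.71), with a median of -0.51 (9 without replicate 1), and their summed level was 511 to 691 CPM in knockout TAC and 592 to 1137 CPM in wild type TAC. Of 8 endothelial markers 1 rose (2 without replicate 1) and 1 fell. Of 10 immediate early genes, which respond fast to handling and stimulation, 6 rose, with Fosb at 2.30 and Jun at 0.56. No marker of these lists was at 0 in any library. The part of cell make-up or of handling in the Nduf difference was not tested.

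**Figure D5:**
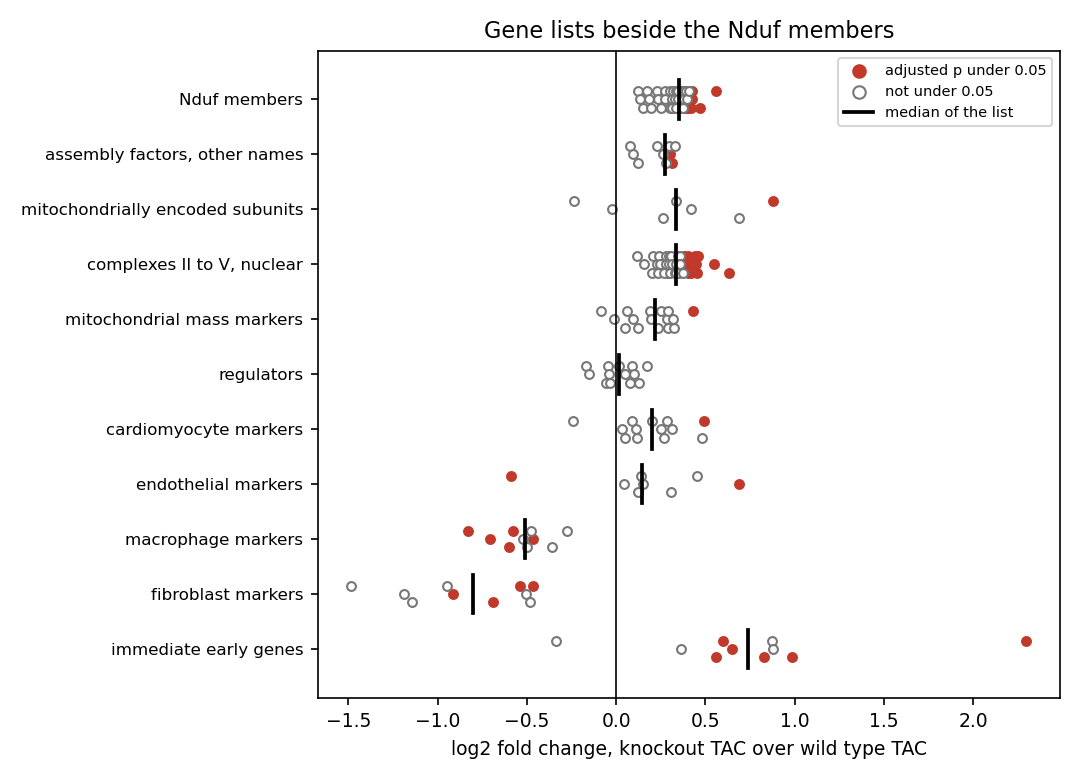
Log2 fold change of the genes of 11 lists, knockout TAC over wild type TAC, with the median of each list as a bar; filled points have an adjusted p under 0.05. The Nduf members and the subunits of complexes II to V have medians of 0.35 and 0.34, cardiomyocyte markers 0.20, and fibroblast and macrophage markers lie below 0.

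The members are short transcripts, with a median of 861 bases against 2527 over the tested genes, and fold changes moved with length over all genes. In knockout against wild type after TAC, the median log2 fold change of all genes was 0.12 for the shortest class of transcripts, up to 600 bases, and -0.06 for the longest of 5 classes. The members had medians of 0.34 (13 members) and 0.26 (2 members) in the same classes. With a smooth offset for transcript length in each library, an alternative chosen after seeing the data, 8 members rose in place of 18, where 3.23% of all genes rose, and the members' median was 0.24. Among the members themselves the fold change between genotypes after TAC varied little with length (Spearman rho 0.02 over 47 genes, which share libraries), while that of TAC against sham in the wild type was lower in longer transcripts (rho -0.50), as was that between genotypes after sham (rho -0.35).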

How the data were processed

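Ventricular RNA of 14 mouse libraries was analysed from 1 table of raw counts per gene deposited by the authors. HISAT2 2.1.0, FastQC, featureCounts, edgeR and GRCm38 are named in the submitters' processing notes; the sources used here give neither the annotation release nor the strand setting. Groups were taken from the sample labels.

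Counts were scaled with TMM factors and tested in R 4.3.3 with edgeR 4.0.16 (filterByExpr on group, robust quasi-likelihood fit of 4 group means over all 14 libraries, Benjamini-Hochberg over all genes tested, threshold 0.05). The contrasts were knockout against wild type after TAC and after sham, TAC against sham in each genotype, and their difference. Levels are CPM, and log2(CPM + 0.5) where medians over members are taken. Lengths and overlaps come from GENCODE M21, where 54495 of 54532 gene IDs were found, and promoters from RefSeq. The fit was tested on simulated data. Intervals and p-values rest on the spread between libraries, each taken as 1 mouse.

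Members and lists were chosen with earlier results of these data known. Named members were those past the threshold in any contrast, the 2 of smallest unadjusted p of each role in each contrast, those of highest and lowest CPM per kb and those below the filter; of other lists, every mitochondrially encoded subunit and up to 4 genes of smallest p. Others named were chosen after their values were seen. Values of 1 member are not reported here; it is included in the counts and medians. Same-numbered knockout and wild type TAC libraries did not deviate together (correlations of -0.24, -0.20 and -0.13), so numbers were not taken as pairs. Alternatives were each library left out, RLE scaling, mitochondrial genes left out, no filter, DESeq2 1.42.0, limma 3.58.1 voom, only the groups compared, a replicate block and, chosen after seeing the data, a transcript length offset.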

Additional observations from a re-analysis of the deposited data

Results flagged for a closer look

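In 5 of 110 groups of 4 to 10 libraries, 1 library stood apart from its group by Dixon's criterion, and chance flags about 1 in 20 groups. Within knockout TAC, Ndufa8 had 430 CPM in replicate 4, with the nearest library at 383 CPM and the other end at 374 CPM. Ndufa9 had 443 CPM in knockout TAC replicate 2, below 504 CPM in the nearest library and 511 CPM at the other end. The level of mt-Nd2 was 16600 CPM in knockout TAC replicate 4, against 13300 CPM in the nearest and 13100 CPM in the lowest library. Within wild type TAC, Ndufb3 had 231 CPM in the library labelled replicate 1, the one with few Ccl24 counts, against 175 CPM in the nearest and 144 CPM in the lowest library. The short gene mt-Nd3 had 51.7 CPM in wild type TAC replicate 4, against 16.4 CPM in the nearest and 3 CPM in the lowest library.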

How the results depend on the processing

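After TAC, 18 members were higher in knockout than in wild type with all libraries (3.71% of all genes), and 30 by DESeq2 (6.69%). The count was 7 with only the groups compared (1.95%) and 8 with the transcript length offset (3.23%). It ranged from 0 to 39 when libraries were left out in turn, with a median log2 fold change of 0.31 to 0.42. With the replicate block it was 0 members, where 0.113% of all genes rose, at a median of 0.23. In that fit 6 members had an unadjusted p under 0.05 by edgeR, and the replicate numbers are not shown to pair the mice. After sham the count was 21 with only the groups compared and 0 in each fit with a library left out, where the median ranged from 0.23 to 0.54, and the median was 0.25 with the transcript length offset. The number lower after TAC in the wild type was 1 with all libraries, where 5.8% of all genes fell. It was 2 with RLE scaling (6.21%), without mitochondrial genes (5.73%), without a filter (3.07%) and by DESeq2 (8.19%). It was 0 with only the groups compared (2.54%) and 0 with the replicate block (0.0693%). The median of this comparison was -0.08 to 0.03 with libraries left out. It was 0.12 with the replicate block (43 of 47 above 0) and -0.11 with the transcript length offset (7 of 47 above 0), so the sign depends on the setting. TAC against sham in the knockout gave 0 members in each such fit (median -0.20 to 0.12), as did the difference between genotypes (median -0.20 to 0.13). No value reversed its call. With 2 sham libraries per genotype, small TAC effects are not resolved, and the causes of these shifts were not tested.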
